A study of Mus musculus with 30 samples.

Results

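The surface ectoderm of the mouse forelimb bud was followed through 10 genes that mark it: the basal keratins *Krt5*, *Krt14* and *Krt15*, the simple epithelial keratins *Krt8* and *Krt18*, the adhesion genes *Cdh1* and *Epcam*, the splicing regulator *Esrp1* and the transcription factors *Grhl2* and *Grhl3*. The genes were taken by symbol, and all 10 were found among the 50833 genes of the count table and passed the filter on low counts in each comparison. Wild-type embryos of the Swiss Albino strain were exposed at E10.5 through a single intraperitoneal injection of the pregnant female. The 5 C59 groups received Wnt-C59 (C59), which inhibits porcupine, the enzyme that adds the lipid that WNT proteins need to leave the cell. The 5 control groups received DMSO, the solvent of the compound. Forelimb buds were collected 1, 6, 12, 18 and 24 h later, with 3 libraries in each of the 10 groups, and libraries were made by polyA RNA-seq. The methods of the study describe the dissection of several pairs of stage-matched buds, and the RNA of a replicate as that of a single pair. However, 14 of the 30 libraries held both Y-linked and *Xist* signal above 5 FPKM, which goes against a single embryo of 1 sex. The methods of the study give methylcellulose and Tween-20 as parts of the C59 solution and not of the control injection, so the compound and its vehicle cannot be told apart here. The methods describe replicates as different embryos of several litters, and the labels do not say which libraries share a litter.

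The surface ectoderm is a thin epithelium around a core of mesenchyme. Its early single layer carries the keratin pair K8 and K18, and as it commits to epidermis and stratifies the basal cells turn on K5 and K14. E-cadherin (*Cdh1*) and EpCAM hold epithelial cells to each other, ESRP1 selects the epithelial forms of many transcripts, and the grainyhead-like factors GRHL2 and GRHL3 drive epithelial junction and barrier genes. WNT ligands made by the ectoderm act both on the mesenchyme below and on the ectoderm itself, including the apical ectodermal ridge (AER) at its rim.

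Library totals ran from 18188636 to 38974885 counts, and the 10 genes had between 110 and 4625 counts in a library. *Axin2*, a direct target of canonical WNT signaling, fell by 1.97 on the log2 scale 6 h after C59 (SE 0.06, edgeR adjusted p = 7.55e-11) and by 1.45 at 12 h (SE 0.06, edgeR adjusted p = 1.4e-07). At 24 h its difference was -0.08 (SE 0.07, edgeR adjusted p = 0.507). Embryos of both sexes were used, and summed FPKM of 4 Y-linked genes lay at 19.77 to 33.18 in the C59 libraries at 6 h and at 0 in all 3 DMSO libraries. At 1 h the ranges were 21.25 to 38.24 and 0.05 to 9.03. At 24 h they were 19.26 to 24.98 and 0.01 to 20.14. Libraries with both Y-linked and *Xist* signal were 3 of 3 in C59 and 0 of 3 in DMSO at 6 h, and 3 of 3 and 2 of 3 at 24 h. The part of embryo sex and of mixed embryos in the differences at these times was not tested.

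By position (GRCm38), 3 of the 5 keratins, *Krt5*, *Krt8* and *Krt18*, lie on chromosome 15. *Krt5* (ENSMUSG00000061527) spans chr15:101707070-101712898 on the minus strand. *Krt8* (ENSMUSG00000049382) lies at chr15:101996698-102004482 on the minus strand beside its partner *Krt18* (ENSMUSG00000023043) at chr15:102028180-102032027 on the plus strand. *Krt14* (ENSMUSG00000045545, chr11:100203162-100207548) and *Krt15* (ENSMUSG00000054146, chr11:100131758-100135928) are type I keratins on the minus strand of chromosome 11. The other genes are *Cdh1* (ENSMUSG00000000303, chr8:106603351-106670246, plus strand), *Epcam* (ENSMUSG00000045394, chr17:87635979-87651129, plus strand), *Esrp1* (ENSMUSG00000040728, chr4:11331933-11386783, minus strand), *Grhl2* (ENSMUSG00000022286, chr15:37233036-37363569, plus strand) and *Grhl3* (ENSMUSG00000037188, chr4:135541888-135573630, minus strand). The strand of counting was not stated, so reads of an overlapping gene on the other strand cannot be told apart from those of *Grhl2*. The antisense gene *Gm16136* overlaps *Grhl2* and had a median of 95 counts of its own. *Krt8* has 1 annotated pseudogene that could share its reads.

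Promoters are shown to give the sequence that the start regions of some of these genes hold. Several of the 10 genes had no promoter in the set used, and the promoter of a further gene is not reported here. The 10 genes and the motifs were chosen with results of these data known. Promoters of 5 of the 10 genes were taken from RefSeq (GRCm38.p6), and the 250 bases before each start were searched on both strands. The motifs were the E-box CAGGTG that ZEB and SNAI repressors bind, the TCF/LEF core CTTTGA, the grainyhead site AACCNGTT, the GC box GGGCGG and the TATA box TATAAA. In the sequences the E-box, the TCF/LEF core and the GC box are in capitals, on either strand, and the start of transcription follows the last base of the 3 longer sequences. The *Krt18* sequence is a window around its E-box, further from the start.

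Krt5 (chr15:101712906-101713155, minus strand): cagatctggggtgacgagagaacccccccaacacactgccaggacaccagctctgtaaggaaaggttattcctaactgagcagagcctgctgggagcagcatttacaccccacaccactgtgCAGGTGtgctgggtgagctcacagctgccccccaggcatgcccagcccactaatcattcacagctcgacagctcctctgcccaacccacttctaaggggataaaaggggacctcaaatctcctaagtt
Epcam (chr17:87635729-87635978, plus strand): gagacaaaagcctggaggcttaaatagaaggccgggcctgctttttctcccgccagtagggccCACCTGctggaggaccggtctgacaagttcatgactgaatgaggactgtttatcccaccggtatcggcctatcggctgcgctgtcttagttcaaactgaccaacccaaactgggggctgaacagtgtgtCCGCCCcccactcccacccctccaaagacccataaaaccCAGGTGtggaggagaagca
Grhl3 (chr4:135573633-135573882, minus strand): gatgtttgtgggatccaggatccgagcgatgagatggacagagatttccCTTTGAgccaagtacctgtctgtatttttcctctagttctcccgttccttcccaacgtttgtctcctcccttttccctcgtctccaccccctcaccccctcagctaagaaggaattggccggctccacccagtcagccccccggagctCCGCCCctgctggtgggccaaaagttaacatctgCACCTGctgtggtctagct
Krt18, E-box with 12 bases on each side (chr15:102027990-102028019, plus strand): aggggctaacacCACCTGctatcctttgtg

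The E-box CAGGTG was found in 4 of these 5 promoters, against 17.2% of all 32851 promoters searched. It began 128 bases before the start in *Krt5*, 214 in *Krt18* and 19 in *Grhl3*, and *Epcam* held it at both 187 and 19. Of the 5, *Krt14* was the gene without it. The RefSeq start of *Krt14* lies inside its longer annotated transcript. The TCF/LEF core was found in *Grhl3* alone (13.8% of all promoters), the GC box in *Grhl3* and *Epcam* (32.7%), and neither the grainyhead site (1.79%) nor the TATA box (12.4%) in any of the 5. These letters describe the windows and do not show that a factor binds there.

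In controls the keratins changed places as the buds grew. Levels per length (FPKM) put *Krt5* first at 1 h (24.4 ± 2.83, SD, n = 3), followed by *Epcam* at 18.4 ± 2.13, *Krt18* at 12.9 ± 1.41 and *Krt8* at 10.8 ± 1.75. The libraries of *Krt18* and *Krt8* overlapped, whereas *Krt5*, *Epcam* and *Krt18* were apart. *Cdh1* (6.52 ± 0.416), *Esrp1* (4.79 ± 0.179), *Krt14* (4.32 ± 0.626), *Grhl3* (3.31 ± 0.366), *Krt15* (2.53 ± 0.296) and *Grhl2* (2.30 ± 0.195) followed, and *Esrp1* overlapped with *Krt14* as did *Krt15* with *Grhl2*. By 24 h the 3 basal keratins held the first places, at 59.4 ± 0.806 FPKM for *Krt5*, 27.2 ± 1.21 for *Krt14* and 15.4 ± 1.59 for *Krt15*. *Krt15* and *Epcam* (14.6 ± 0.638) overlapped at 24 h, and *Krt8* had moved down to 3.83 ± 0.439 FPKM, overlapping with *Esrp1* at 4.19 ± 0.183.

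Between 1 and 24 h in DMSO 8 of the 10 genes passed the test (edgeR adjusted p under 0.05, among 59.3% of all genes tested), 3 of them higher (30.2% of all genes) and 5 lower (29.2%). *Krt15* had 5.45, 6.43 and 6.64 CPM (counts scaled to the library size) at 1 h and 30.5, 33.0 and 37.4 at 24 h. That was a rise of 2.49 on the log2 scale (SE 0.10, edgeR adjusted p = 7.99e-11). *Krt14* rose by 2.43 (SE 0.08, edgeR adjusted p = 6.35e-12) and *Krt5*, the partner of K14 in basal cell filaments, by 1.17 (SE 0.07, edgeR adjusted p = 2.43e-09). The simple keratins went the other way. *Krt8* had 22.5, 22.6 and 27.7 CPM at 1 h and 6.53, 8.12 and 8.73 at 24 h, a fall of 1.57 on the log2 scale (SE 0.12, edgeR adjusted p = 4.85e-08). *Krt18* decreased by 0.73 (SE 0.09, edgeR adjusted p = 1.06e-05), less than *Krt8* although the proteins pair with each other, and the FPKM of *Krt8* over *Krt18* went from 0.746 to 0.905 at 1 h down to 0.401 to 0.555 at 24 h.

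The non-keratin genes moved little over the same 24 h. *Cdh1* fell by 0.40 (edgeR adjusted p = 0.000239), *Epcam* by 0.39 (edgeR adjusted p = 0.000618) and *Esrp1* by 0.23 (edgeR adjusted p = 0.0167), while *Grhl2* (0.04) and *Grhl3* (-0.19) did not pass. The summed FPKM of the basal keratins over that of the simple keratins was 1.29 to 1.36 in the DMSO libraries at 1 h and 8.24 to 8.81 at 24 h. In a bulk sample fewer cells of a type and less RNA per cell cannot be told apart, and this holds for each difference below. The 4 changes beyond a log2 fold change of 1 were those of *Krt5*, *Krt14*, *Krt15* and *Krt8*, against 12.0% of all genes tested.

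**Figure D1:**
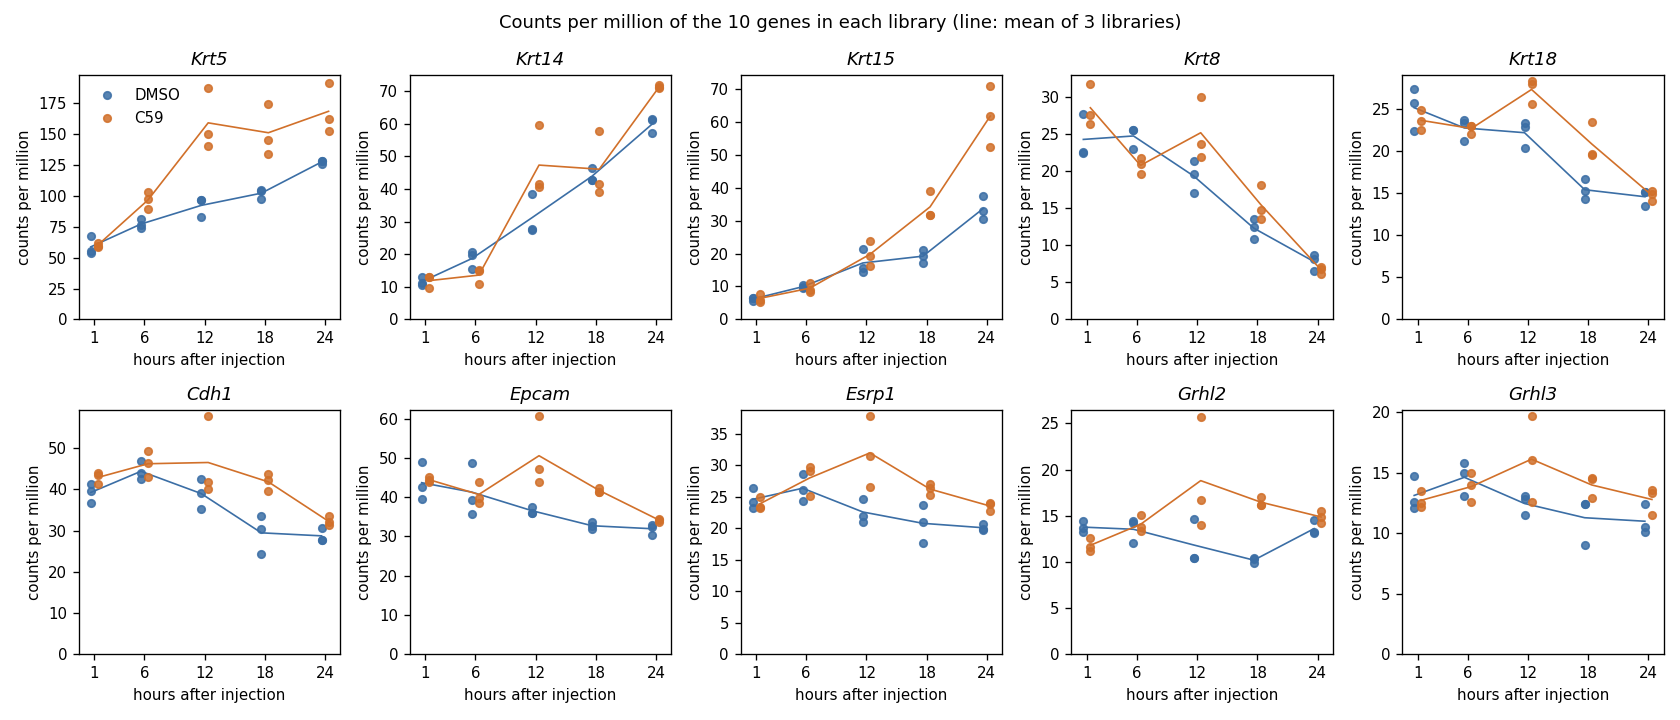
CPM (vertical axes, each from 0) of the 10 genes against hours after injection, with 1 point per library, DMSO in blue, C59 in orange and lines through the means of 3 libraries. From 1 to 24 h *Krt5*, *Krt14* and *Krt15* climb and *Krt8* and *Krt18* decline in both treatments. In C59 the means of *Krt8* (20.8 to 25.2 CPM) and *Krt18* (22.6 to 27.3 CPM) rise between 6 and 12 h. At 12 h the C59 points of *Krt5* (140 to 187 CPM) lie above every DMSO point of any time (54.0 to 128 CPM).

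At 1 h after injection none of the 10 genes passed the test (edgeR, against 2.75% of all genes tested). At an unadjusted p under 0.05 there were 2, *Krt8* (0.25, SE 0.09) and *Cdh1* (0.14, SE 0.06), and DESeq2 also called 0. *Grhl2* was the gene whose groups did not overlap (22.0% of all genes tested), with 13.2, 13.7 and 14.4 CPM in DMSO and 11.2, 11.6 and 12.6 in C59. Its log2 difference was -0.21 (SE 0.10, edgeR adjusted p = 0.296). Marker levels of some other cell types also differed at 1 h. Mesothelium, which carries *Krt8* too, had a summed level of 5.55 to 11.7 CPM in DMSO and 12.1 to 20.3 in C59. Erythroid genes had 4690 to 6290 and 6180 to 8740 CPM, and limb mesenchyme genes 3090 to 3220 and 2950 to 3060. The part of cell mixture was not tested at 1 h.

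At 6 h, with *Axin2* at its lowest, 3 keratins were called, in both directions. Of these calls that of *Krt5* alone held without each library in turn. *Krt5* was higher in C59 libraries, *Krt14* and *Krt8* were lower, and the other 7 genes did not pass, so 3 of 10 were called against 19.6% of all genes tested (edgeR). Of all genes 8.2% were called higher and 11.4% lower. *Krt5* had 74.1, 76.3 and 81.1 CPM in DMSO and 89.2, 97.7 and 103 in C59. Every C59 library was above every DMSO library, and the log2 difference was 0.34 (SE 0.06, edgeR adjusted p = 0.00133). *Krt14* had 15.4, 19.9 and 20.7 CPM in DMSO and 10.8, 14.9 and 15.1 in C59. Here each C59 library lay below each DMSO library, by 0.45 on the log2 scale (-0.45, SE 0.13, edgeR adjusted p = 0.0324).

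*Krt8* had 23.0, 25.6 and 25.6 CPM in DMSO and 19.6, 20.9 and 21.8 in C59 at 6 h. The groups did not overlap, and the log2 difference was -0.24 (SE 0.08, edgeR adjusted p = 0.0439). The calls of *Krt14* and *Krt8* rest on single libraries. *Krt14* passed without DMSO replicate 3 or C59 replicate 2 and was lost without any of the other 4 (-0.52 to -0.30, edgeR adjusted p from 0.0533 to 0.140). *Krt8* was lost without any library but DMSO replicate 2 (-0.27 to -0.19, edgeR adjusted p from 0.0603 to 0.157). It was also lost with DESeq2 (-0.23, adjusted p = 0.0987) and, in edgeR, with the replicate block (adjusted p = 0.0527), upper-quartile factors (0.0659), all genes of the table (0.0539) and all 30 libraries (0.195). *Krt14* was lost with all 30 libraries (edgeR adjusted p = 0.0803) and with limma on log2(FPKM + 1) (0.0679) and log2(FPKM + 0.1) (0.0646). *Krt5* passed without each library in turn (0.29 to 0.40, edgeR adjusted p from 0.000856 to 0.0102). The FPKM of *Krt5* over *Krt14* was 3.79 to 5.61 in DMSO and 7.35 to 8.93 in C59, so the basal pair moved apart in all 3 C59 libraries. This ratio was also apart at 18 h, at 2.36 to 2.56 in DMSO and 3.15 to 3.64 in C59. Groups did not overlap for these 3 genes, among 36.6% of all genes tested, and none of the 10 was beyond a log2 fold change of 1 (1.17% of all genes).

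**Figure D2:**
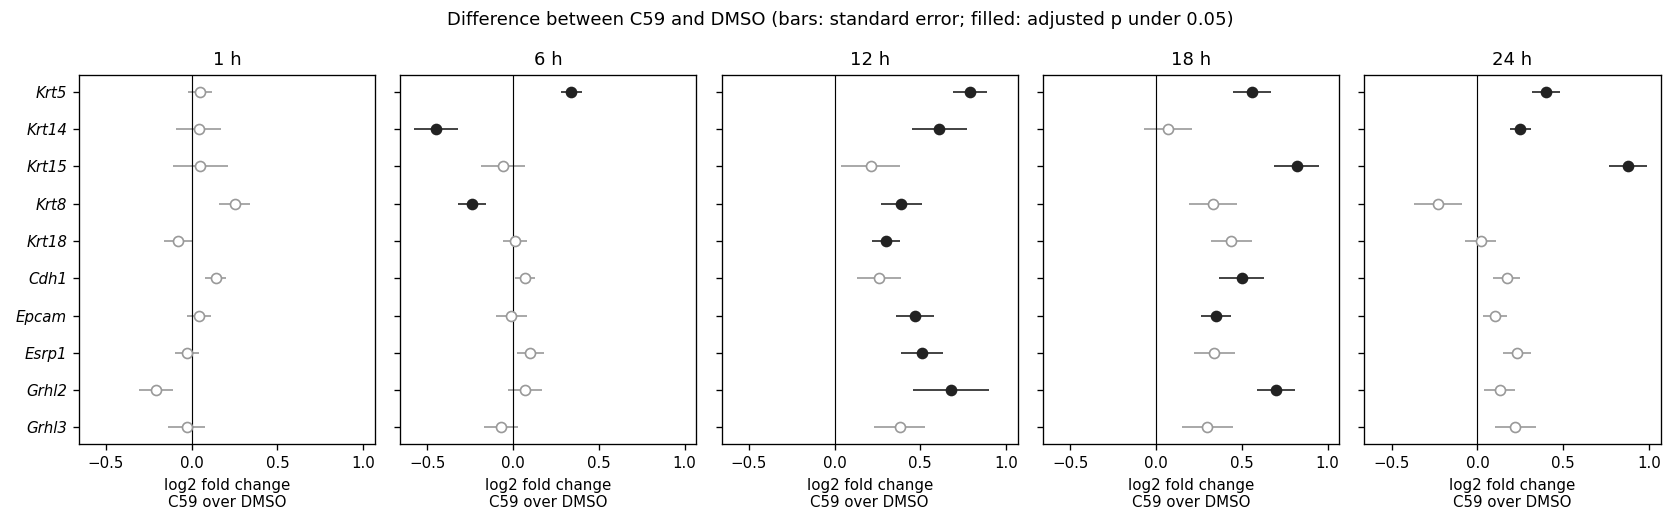
Log2 fold change of C59 over DMSO (horizontal axis) for each gene at the 5 times, with bars for the standard error and filled points for an edgeR adjusted p under 0.05. At 12 h all 10 points lie to the right of 0 and 7 are filled, whereas at 6 h *Krt5* (0.34) and *Krt14* (-0.45) lie on opposite sides.

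At 12 h all 10 genes were higher in C59 on average, and 7 passed the test: *Krt5*, *Krt14*, *Krt8*, *Krt18*, *Epcam*, *Esrp1* and *Grhl2*. Of all genes tested 47.5% were called and 22.0% called higher at this time, and 51.9% had a log2 fold change above 0 (edgeR). The median log2 fold change was 0.43 over the 10 genes and 0.02 over all genes. None of the 10 was beyond a log2 fold change of 1, against 4.95% of all genes. In 6 genes the groups did not overlap, all higher, against 26.8% of all genes tested.

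*Krt5* had 83.1, 96.6 and 97.0 CPM in DMSO and 140, 150 and 187 in C59 at 12 h. Each C59 library lay above all 15 DMSO libraries of the series, the highest of which had 128 CPM. The log2 difference was 0.79 (SE 0.10, edgeR adjusted p = 0.000105). *Krt14* had 27.4, 27.6 and 38.6 CPM in DMSO and 40.7, 41.6 and 59.7 in C59. It was now above the controls in all 3 libraries, by 0.61 (SE 0.16, edgeR adjusted p = 0.0109), after lying below them at 6 h. *Krt15* (0.21, SE 0.17, edgeR adjusted p = 0.317) overlapped, with 14.4 to 21.3 CPM in DMSO and 16.1 to 23.9 in C59.

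The simple keratins and the non-keratin genes shared the direction at 12 h. *Krt18* had 20.4, 22.8 and 23.3 CPM in DMSO and 25.6, 28.0 and 28.3 in C59, and *Krt8* had 17.1, 19.6 and 21.3 against 21.9, 23.6 and 30. The groups of both genes were apart, with log2 differences of 0.30 for *Krt18* (SE 0.08, edgeR adjusted p = 0.0101) and 0.39 for *Krt8* (SE 0.12, edgeR adjusted p = 0.0255). *Epcam* had 36.0, 36.1 and 37.6 CPM in DMSO and 43.8, 47.1 and 60.8 in C59, a difference of 0.47 (SE 0.11, edgeR adjusted p = 0.00419). *Esrp1* had 21, 22.0 and 24.7 CPM in DMSO and 26.5, 31.5 and 37.8 in C59, a difference of 0.51 (SE 0.12, edgeR adjusted p = 0.00551). For both genes the lowest C59 library was above the highest DMSO library.

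*Grhl2* had 10.4, 10.4 and 14.7 CPM in DMSO and 14, 16.7 and 25.7 in C59 at 12 h. Its groups overlapped by 1 library, and it passed with a difference of 0.68 (SE 0.22, edgeR adjusted p = 0.0243). *Grhl3* (0.38, SE 0.15, edgeR adjusted p = 0.0551) and *Cdh1* (0.26, SE 0.13, edgeR adjusted p = 0.114) did not pass. C59 replicate 3 had the highest CPM of its group in all 10 genes. Without it the *Krt5* difference was 0.67, *Epcam* 0.33 and *Esrp1* 0.38, and *Grhl2* (0.39, edgeR adjusted p = 0.0751) and *Krt8* (0.25, edgeR adjusted p = 0.0800) no longer passed. Without DMSO replicate 1 the count of genes that passed was 4, with *Krt14* (edgeR adjusted p = 0.0521), *Krt18* (0.0533) and *Grhl2* (0.0932) lost. *Grhl2* was also lost without DMSO replicate 2 (0.0709), *Krt8* without DMSO replicate 2 (0.0834) or 3 (0.0645) and *Krt14* without DMSO replicate 3 (0.0515), all as edgeR adjusted p. Without C59 replicate 1 the count was 9, with *Cdh1* (0.37) and *Grhl3* (0.54) added.

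The change between 6 and 12 h was itself tested as an interaction. The C59 difference moved up by 1.05 for *Krt14* (SE 0.25, edgeR adjusted p = 0.00747), by 0.63 for *Krt8* (SE 0.15, edgeR adjusted p = 0.00944), by 0.48 for *Epcam* (SE 0.16, edgeR adjusted p = 0.0453) and by 0.45 for *Krt5* (SE 0.13, edgeR adjusted p = 0.0221). These 4 of 10 stand against 6.59% of all genes called in this direction. Without DMSO replicate 1 of 12 h *Krt14* and *Krt8* still passed, and *Epcam* and *Krt5* did not. The other 6 genes also had values above 0 and did not pass, from 0.19 for *Cdh1* to 0.61 for *Grhl2*.

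Other epithelial genes were read from fixed lists that hold none of the 10 genes. At 12 h, of 30 junction and adhesion genes 14 were higher and 1 lower, with a median of 0.42 (edgeR, against 0.02 over all genes). The highest were *Marveld3* (1.46, edgeR adjusted p = 0.0231), a tight junction protein, *Col17a1* (1.02, edgeR adjusted p = 0.000973), the hemidesmosomal collagen, and *Ocln* (0.90, edgeR adjusted p = 0.0169). *Dsc3*, a desmosomal cadherin, was the lower gene at -0.92 (edgeR adjusted p = 0.00232). Among 19 genes of polarity, trafficking and surface proteases 10 were higher and 0 lower (median 0.41), led by *Mal2* at 1.78 and *Erbb3* at 1.23, the latter also a Schwann cell gene. *Marveld3* and *Mal2* are genes of low level, with group means of 0.626 to 0.979 CPM at 24 h.

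Of 6 further keratins tested at 12 h 2 were higher, *Krt20* (1.81, edgeR adjusted p = 0.00663) and *Krt17* (0.80, edgeR adjusted p = 0.00641), with a median of 0.52. Of 14 epithelial transcription and splicing factors 3 were higher and 2 lower (median 0.32). *Ovol2*, a repressor of the mesenchymal programme, stood at 1.27 (edgeR adjusted p = 0.028), *Elf3* at 0.55 and *Trp63*, the master factor of stratified epithelia, at 0.47 (edgeR adjusted p = 0.00213). *Tfap2c* stood at -1.56 (edgeR adjusted p = 0.000214) and *Tfap2b* at -0.49. *Krt20* and *Ovol2* are likewise genes of low level, with group means of 0.572 to 1.03 CPM at 24 h.

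Of 17 ridge and ectoderm patterning genes tested at 12 h 3 were higher and 4 lower, with a median of -0.07. *Fgf8*, the main FGF of the ridge, was at -3.17 (edgeR adjusted p = 1.47e-06), *Sp8* at -0.70 and *Fgf9* at -0.58, while *Wnt3*, the ectodermal ligand needed for the ridge, was at 0.65 (edgeR adjusted p = 0.00154), *Dlx3* at 0.47 and *Jag2* at 0.30. At 6 h 8 of 18 were lower and 0 higher, among them *Fgf4* (-3.41) and *Fgf8* (-1.59).

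Markers of other cell types moved at 12 h too. All 9 macrophage genes had values above 0 (5 passed, median 0.72, summed level 28.6 to 31.9 CPM in DMSO and 49.8 to 52.6 in C59), as did all 8 endothelial genes (4 passed, median 0.28, 350 to 376 against 431 to 478 CPM) and all 5 Schwann cell and crest genes tested (3 passed, median 0.92, 39.5 to 53.3 against 86.7 to 118 CPM). All 8 erythroid genes tested were above 0 as well (1 passed, median 0.31). Of 10 limb mesenchyme genes 2 were higher and 6 lower (median -0.35, 3510 to 3600 against 3130 to 3480 CPM), and of 7 muscle progenitor genes 2 were higher and 4 lower (median -0.93). Mesothelium, which also carries *Krt8* and *Krt18*, had a summed level of 2.93 to 8.27 CPM in DMSO and 5.19 to 6.55 in C59, with *Msln* at 0 in all of these libraries. The part of cell mixture in the differences of the 10 genes was not tested. Of 9 genes of the mesenchymal programme that opposes *Cdh1* and *Esrp1* 4 were higher and 2 lower, with *Zeb2* at 0.54, *Vim* at 0.50, *Snai1* at -0.52 and *Twist1* at -1.19.

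At 6 h, of 30 junction and adhesion genes 4 were higher and 4 lower (median 0.13), led by *Col17a1* (0.48) and *Jup* (0.37) upward and by *Dsc3* (-1.91, edgeR adjusted p = 0.00194) downward, and of 6 further keratins *Krt10* (-0.49) and *Krt7* (-0.39) were lower. At 18 h 4 of 29 junction genes were higher and 0 lower (median 0.37), among them *Lama5* (0.93, edgeR adjusted p = 0.00557) and *Dsg2* (0.61). *Krt19*, which pairs with K8 in simple epithelia, was higher at 18 h (0.81, edgeR adjusted p = 0.0237). Of 14 epithelial transcription and splicing factors 1 was higher and 1 lower at 18 h (median 0.18), *Trp63* at 0.49 (edgeR adjusted p = 0.0277) and *Tfap2c* at -1.29 (edgeR adjusted p = 0.00478). At 24 h 2 of 13 were higher and 0 lower (median 0.22), *Trp63* at 0.28 (edgeR adjusted p = 0.0266) and *Tfap2b* at 0.28 (edgeR adjusted p = 0.0401). At 6 h 1 of 14 was higher, *Tfap2b* (0.21), and 1 lower, *Tfap2c* (-1.10). *Col17a1* was higher at 24 h (0.41, edgeR adjusted p = 0.0392). At 24 h 2 of 30 junction genes were higher and 0 lower, with a median of 0.04. Polarity, trafficking and protease genes had higher summed levels in C59, without overlap, at 6, 18 and 24 h. They had 226 to 238 CPM in DMSO and 241 to 254 in C59 at 6 h and 232 to 240 and 311 to 355 at 18 h. At 24 h they had 243 to 259 and 278 to 290 CPM. Of the ridge and ectoderm patterning genes, *Wnt3* (0.44), *Jag2* (0.37) and *Wnt6* (0.37) were higher at 24 h and *Sp9* (-1.32) was lower. Among markers of other cell types, 4 of 9 macrophage genes were higher and 0 lower at 18 h (median 0.52, summed level 41.9 to 47.3 CPM in DMSO and 59.5 to 68.4 in C59) and 2 were higher and 0 lower at 24 h (median 0.32, 47.6 to 53.6 against 59.3 to 67.9 CPM). Of 5 Schwann cell and crest genes 3 were higher at 6 h (median 0.42, 30.5 to 36.2 against 40.6 to 53.1 CPM), 1 at 18 h (median 0.29) and 2 at 24 h (median 0.58). Of 7 muscle progenitor genes 4 were lower and 0 higher at 18 h (median -1.07, 213 to 225 against 146 to 186 CPM) and at 24 h (median -0.38, 247 to 274 against 195 to 222 CPM). Of 8 erythroid genes 4 were lower at 6 h (median -0.23, 4400 to 4920 against 3340 to 4410 CPM). Of 8 endothelial genes 0 were higher at 6, 18 and 24 h, and 1 was lower at 6 h (*Tek*, -0.26) and at 24 h (*Kdr*, -0.26, summed level 356 to 364 CPM in DMSO and 301 to 339 in C59). Of 10 limb mesenchyme genes 2 were higher and 5 lower at 6 h (median -0.13, 3400 to 3490 against 3130 to 3250 CPM) and 1 was higher and 2 lower at 18 h (median -0.01). At 24 h 0 were higher and 2 lower, *Lhx9* (-0.46) and *Col1a2* (-0.37), with summed levels of 3670 to 3740 CPM in DMSO and 3260 to 3370 in C59, opposite in direction to the basal keratins. The part of cell mixture was not tested at these times either.

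**Figure D3:**
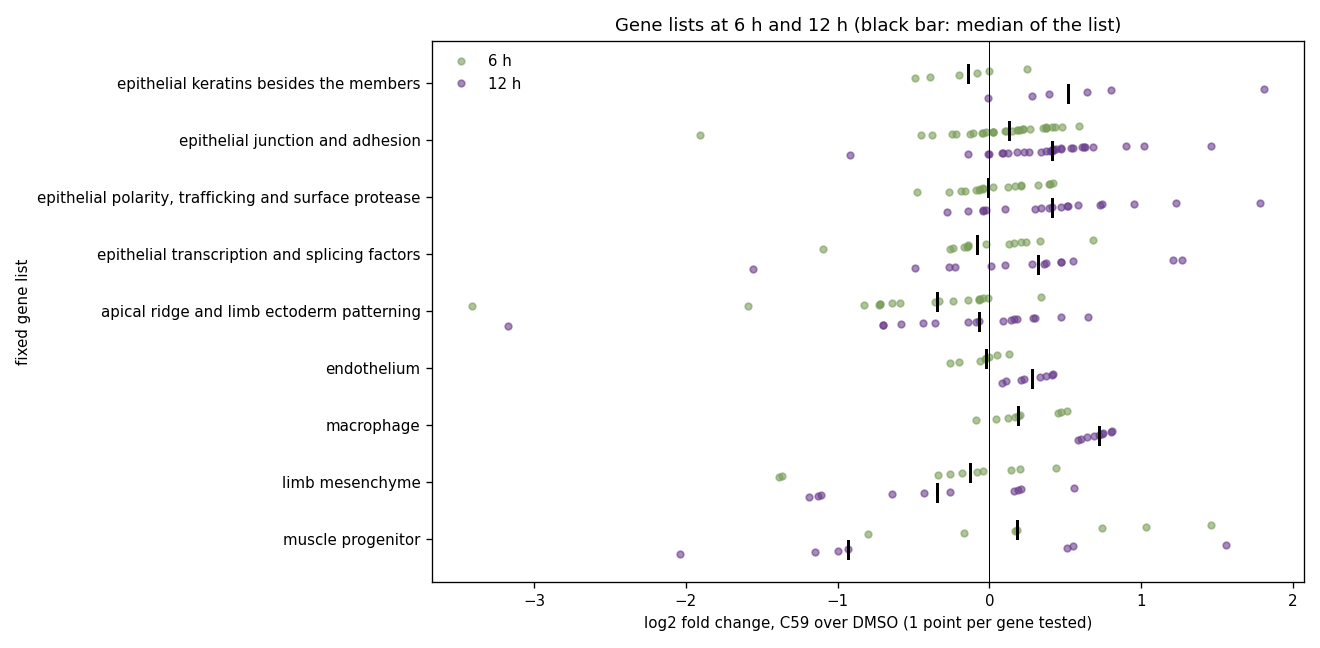
Log2 fold change of C59 over DMSO (horizontal axis) with 1 point per gene tested in 9 fixed lists, at 6 h in green and at 12 h in purple, and a black bar at the median of each list. At 12 h the bars of the 4 epithelial lists at the top lie between 0.32 and 0.52, that of the ridge and ectoderm patterning list at -0.07 and that of limb mesenchyme at -0.35.

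At 18 h, when *Axin2* no longer differed past the threshold (-0.16, edgeR adjusted p = 0.333), 5 of the 10 genes were higher in C59 and 0 lower, against 7.08% of all genes tested called and 3.46% called higher (edgeR). They were *Krt15*, *Grhl2*, *Krt5*, *Cdh1* and *Epcam*. In 8 genes the C59 libraries lay above the DMSO libraries without overlap, against 16.6% of all genes tested, and the median log2 fold change was 0.39 over the 10 genes and 0.00 over all genes. The count rests on single libraries, since it was 0 without DMSO replicate 3 2 without DMSO replicate 1 or 2 and 3 without C59 replicate 1 or 2, while the 10 differences without DMSO replicate 3 kept their sign.

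*Krt15* had 17.2, 19.3 and 21.1 CPM in DMSO and 31.7, 31.7 and 39.0 in C59 at 18 h. After overlapping until 12 h its groups were now apart, by 0.82 (SE 0.13, edgeR adjusted p = 0.0071). *Grhl2* had 9.87, 10.3 and 10.4 CPM in DMSO and 16.2, 16.2 and 17 in C59, a difference of 0.70 (SE 0.11, edgeR adjusted p = 0.00745). Replicates of *Grhl2* were close in both groups, unlike at 12 h. *Krt5* had 97.4, 104 and 105 CPM in DMSO and 134, 145 and 174 in C59, a difference of 0.56 (SE 0.11, edgeR adjusted p = 0.0193). *Cdh1* had 24.3, 30.5 and 33.6 CPM in DMSO and 39.6, 42.2 and 43.7 in C59, a difference of 0.50 (SE 0.13, edgeR adjusted p = 0.0474). *Epcam* had 31.9, 32.7 and 33.6 CPM against 41.4, 41.4 and 42.4, a difference of 0.35 (SE 0.09, edgeR adjusted p = 0.0470). *Cdh1* and *Epcam* sat at the edge of the threshold and were lost with limma on log2(FPKM + 1), at adjusted p = 0.0552 and 0.0591.

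*Krt14* did not pass at 18 h (0.07, SE 0.14, edgeR adjusted p = 0.822), with 42.8, 42.8 and 46.3 CPM in DMSO and 39.0, 41.5 and 57.7 in C59. Its C59 libraries lay on both sides of the controls, and without C59 replicate 3 the difference was -0.12. *Krt18* (0.44, edgeR adjusted p = 0.0598), *Esrp1* (0.34, edgeR adjusted p = 0.141) and *Grhl3* (0.30, edgeR adjusted p = 0.248) did not pass although their groups were apart. Between 12 and 18 h no gene passed the interaction test (edgeR, 8.49% of all genes called). At an unadjusted p under 0.05 there were 2, *Krt14* (-0.54, SE 0.25) and *Krt15* (0.62, SE 0.23), and DESeq2 also called 0.

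At 24 h the 3 basal keratins passed, all higher in C59, and the other 7 genes did not, against 6.44% of all genes called and 2.88% called higher (edgeR). *Krt15* had 30.5, 33.0 and 37.4 CPM in DMSO and 52.3, 61.8 and 70.9 in C59. Each C59 library was above each control, and the log2 difference of 0.88 (SE 0.11, edgeR adjusted p = 0.00063) was as large as or exceeded by that of 1.9% of all genes tested. *Krt5* had 126, 128 and 128 CPM in DMSO and 152, 162 and 191 in C59, a difference of 0.40 (SE 0.08, edgeR adjusted p = 0.00936). *Krt14* had 57.2, 61.1 and 61.6 CPM in DMSO and 71.0, 71.3 and 71.9 in C59, a difference of 0.25 (SE 0.06, edgeR adjusted p = 0.0333). The *Krt5* and *Krt15* calls held without each library in turn, and *Krt14* was lost without any DMSO library or C59 replicate 2, at edgeR adjusted p from 0.0637 to 0.168. *Krt14* was also lost with all 30 libraries in 1 fit (0.25, edgeR adjusted p = 0.362) and with the replicate block (0.25, edgeR adjusted p = 0.0567).

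Differences of the other 7 genes ran from -0.23 to 0.23 at 24 h. Groups of *Cdh1* (0.17), *Epcam* (0.10) and *Esrp1* (0.23) were still apart, as were those of the basal keratins, so that 6 of 10 did not overlap against 13.2% of all genes tested in this direction. The adjusted p of these 3 were 0.218, 0.467 and 0.101 (edgeR). *Krt8* stood at -0.23 (SE 0.14, edgeR adjusted p = 0.372) and *Krt18* at 0.02. For *Grhl2* the C59 difference dropped by 0.57 from 18 to 24 h (SE 0.12, edgeR adjusted p = 0.0133), the single gene of 10 to pass this interaction (6.96% of all genes called). From 1 to 24 h the C59 difference rose for *Krt15* by 0.84 (SE 0.20, edgeR adjusted p = 0.0214), again 1 of 10, against 4.18% of all genes. That call was lost without DMSO replicate 1, C59 replicate 1 or C59 replicate 2 of 1 h.

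**Figure D4:**
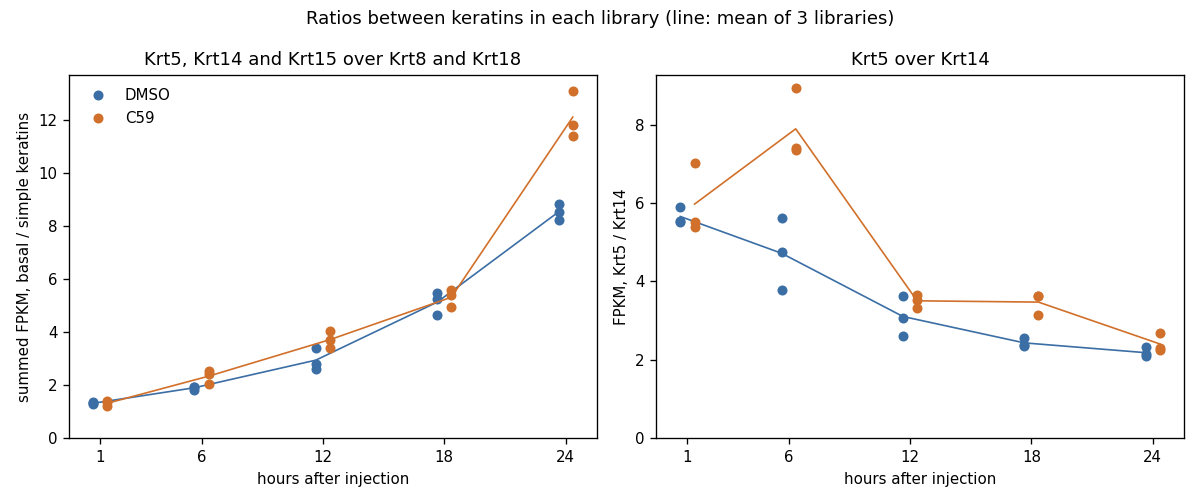
FPKM of *Krt5*, *Krt14* and *Krt15* summed over that of *Krt8* and *Krt18* (left) and FPKM of *Krt5* over *Krt14* (right), against hours after injection, with 1 point per library, DMSO in blue, C59 in orange and lines through group means. The left ratio climbs in both treatments and reaches 8.24 to 8.81 in DMSO and 11.4 to 13.1 in C59 at 24 h. The right ratio is apart at 6 h, with 7.35 to 8.93 in C59 and 3.79 to 5.61 in DMSO. It is also apart at 18 h, with 3.15 to 3.64 in C59 and 2.36 to 2.56 in DMSO.

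The ratio of basal to simple keratins put the treatments side by side over time. It was 1.20 to 1.41 in C59 at 1 h, around the DMSO range, and 2.06 to 2.55 at 6 h, above the DMSO range of 1.83 to 1.95. At 12 h the ranges were 2.61 to 3.41 in DMSO and 3.39 to 4.04 in C59 and at 18 h 4.66 to 5.48 and 4.96 to 5.60, overlapping at both times. At 24 h every C59 library (11.4 to 13.1) was above every DMSO library. An exact permutation test of 3 against 3 libraries cannot go below p = 0.10, so no test of the ratio is given.

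Within C59, from 1 to 24 h, *Krt15* rose by 3.34 (SE 0.14, edgeR adjusted p = 1.33e-10), *Krt14* by 2.65 and *Krt5* by 1.54, and *Krt8* fell by 2.04 (SE 0.11, edgeR adjusted p = 1.87e-09) and *Krt18* by 0.62. *Cdh1* fell by 0.35 and *Epcam* by 0.32, and *Grhl2* rose by 0.39 (SE 0.10, edgeR adjusted p = 0.0055), while in DMSO it stood at 0.04. The difference of 0.35 between these changes did not pass (SE 0.13, edgeR adjusted p = 0.125). *Esrp1* stood at 0.04 in C59 (SE 0.08, edgeR adjusted p = 0.709) after its fall of 0.23 in DMSO, and that difference of 0.27 did not pass (SE 0.10, edgeR adjusted p = 0.148). The genes that passed within C59 were 8 of 10, against 54.1% of all genes tested, with 4 higher (28.4% of all genes) and 4 lower (25.7%).

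A mean of 64 other epithelial genes, none of them keratins, was taken on the log2 CPM scale after centring each gene over the 30 libraries. It lay at 0.17 to 0.47 in C59 at 12 h and at -0.13 to 0.04 in DMSO, and the highest of all libraries was C59 replicate 3. At 6 h the ranges overlapped (-0.08 to 0.05 in C59 and -0.01 to 0.04 in DMSO). *Krt5* minus this mean was -0.16 to -0.05 in DMSO at 12 h and 0.29 to 0.40 in C59, and at 24 h 0.29 to 0.41 in DMSO and 0.56 to 0.79 in C59. *Krt5* was higher in C59 relative to this mean, without overlap, at 6, 12, 18 and 24 h. At 12 h the other 9 genes overlapped between treatments on this scale, including the 6 others that had passed, such as *Epcam* (-0.11 to 0.01 in DMSO and -0.01 to 0.16 in C59) and *Krt14* (-0.12 to 0.44 and 0.29 to 0.57). At 18 h *Krt15*, *Cdh1*, *Epcam* and *Grhl2* were also apart and higher in C59, at 24 h *Krt14*, *Krt15* and *Esrp1*, and at 6 h *Krt8* was apart and lower. At 1 h *Krt8* and *Cdh1* were apart and higher. The share of all genes that were apart on this scale was not computed, so these separations have no baseline. *Krt8* minus this mean at 12 h was 0.06 to 0.48 in DMSO and 0.23 to 0.38 in C59.

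Between replicates the 10 genes mostly varied in the same direction, to unlike degrees (r from -0.03 to 0.73 over the pairs). After subtracting group means, log2 CPM over the 30 libraries correlated above 0 in 44 of the 45 pairs (median Pearson r = 0.39), and the 10 pairs among *Cdh1*, *Epcam*, *Esrp1*, *Grhl2* and *Grhl3* had a median r of 0.68. Levels without that step divided the keratins, with r of 0.88 to 0.95 among the basal keratins, 0.91 between *Krt8* and *Krt18* and -0.82 to -0.37 between basal and simple keratins. These are descriptions over libraries that share time courses and scaling. Other gene pairs were not computed, so the correlations have no baseline. C59 replicate 3 of 12 h, the highest of its group in all 10 genes, enters each of them.

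Of 14038 protein-coding genes, those whose log2 CPM over the 30 libraries was most like the centred mean of the 10 were *Wnt9b* (r = 0.93), *Wnt3* (0.92), *Glrx* (0.89), *Trp63* (0.88) and *Wnt7b* (0.87). By single gene the closest were *Wnt7b* for *Krt5* (0.97), *Osr1* for *Krt14* (0.97), *Cthrc1* for *Krt15* (0.97), *Ccnjl* for *Krt8* (0.94) and *Col18a1* for *Krt18* (0.91). For the other genes they were *Itga3* for *Cdh1* (0.90) and *Epcam* (0.85), *Fermt1* for *Esrp1* (0.84), *Ripk4* for *Grhl2* (0.86) and *Spint1* for *Grhl3* (0.77). By rank correlation *Wnt3* (0.88) and *Trp63* (0.87) were again among the 5 closest to the mean, and *Hsdl1* (0.90) came first. Levels share the time courses, so genes with a like trend score high. After subtracting group means, *Wnt7b* (0.83) alone of the 5 genes first named stayed among the 5 closest to the mean. The closest gene then changed for each of the 10, for *Krt5* to *Spint1* (0.89).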

How the data were processed

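PolyA RNA-seq libraries of forelimb buds, 30 in all, were grouped by treatment and time from the sample labels, with 3 per group. The submitters' processing notes and the methods of the study name Cutadapt 1.16 for trimming and STAR 2.7.0e for mapping to mm10 and counting. The deposited count table holds raw counts per gene, not normalized, with replicates kept apart. The deposited FPKM values were made by the authors with cufflinks 2.2.1 and are relative to transcript length and library size. The strand of counting is not given in the sources used here, while the FPKM values were made with the cufflinks setting for unstranded libraries. Totals of 18188636 to 38974885 counts per library set the precision.

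The test was the two-sided quasi-likelihood F test of edgeR 4.0.16 (R 4.3.3) with TMM factors. It covered protein-coding genes off chromosomes X, Y and M, of which the table holds 20569, after filterByExpr (smallest count 10, smallest total 15). A comparison at 1 time used 6 libraries and an interaction 12. A gene passed at a Benjamini-Hochberg adjusted p under 0.05 over all genes tested, and was counted again beyond a log2 fold change of 1. SE values were derived from the F statistic. CPM are counts scaled to the TMM-adjusted library size, and ratios and orders between genes use FPKM. The script was tested on simulated data.

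The methods describe replicates as different embryos of several litters, without saying which library came from which. P-values measure the spread between these samples and treat the libraries as independent. The pregnant female was injected, and the spread between females was not measured apart. The members and gene lists were chosen with earlier results of these data known. Besides the 10 members, the rule for named genes took up to 3 extreme genes in each direction of a list among those that passed, *Axin2*, and the genes most correlated with the members. *Gm16136* and *Hsdl1* were named outside this rule, after their values were seen, and the promoter motifs were also chosen after the data were seen. The promoter of 1 further member is not reported here. Other settings tried were DESeq2 1.42.0 as the tool, DESeq2 size factors or upper-quartile factors in edgeR, tables without any filter or filtered at a mean CPM of 1, the inclusion of every gene, a joint fit of 30 libraries, limma 3.58.1 on log2(FPKM + 1) and log2(FPKM + 0.1), a block for the replicate number, and fits that each lacked 1 library. Tables were made in Python 3.11.15.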

Additional observations from a re-analysis of the deposited data

Results flagged for a closer look

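The C59 difference of 6 results differed between time points by the interaction test (edgeR, Benjamini-Hochberg adjusted over all genes tested, log2 scale, 12 libraries each). From 6 to 12 h it changed by 1.05 for *Krt14* (SE 0.25, adjusted p = 0.00747), which was lower in 3 of 3 C59 libraries than in any control at 6 h and higher in 3 of 3 at 12 h. Over the same interval it changed by 0.63 for *Krt8* (SE 0.15, adjusted p = 0.00944), with the same turn in 3 of 3 libraries, by 0.48 for *Epcam* (SE 0.16, adjusted p = 0.0453) and by 0.45 for *Krt5* (SE 0.13, adjusted p = 0.0221). *Krt5* was above the controls in 3 of 3 libraries at both times. The interaction calls of *Epcam* and *Krt5* were lost without DMSO replicate 1 of 12 h. These 4 of 10 genes stand against 6.59% of all genes called in this direction. From 12 to 18 h 0 of the 10 passed, against 8.49% of all genes. From 18 to 24 h the difference of *Grhl2* changed by -0.57 (SE 0.12, adjusted p = 0.0133), from 0.70 to 0.13. It was 1 of 10 genes to pass, against 6.96% of all genes. From 1 to 24 h the difference of *Krt15* changed by 0.84 (SE 0.20, adjusted p = 0.0214), from 0.05 to 0.88. It was again 1 of 10, against 4.18% of all genes. That call was lost without DMSO replicate 1, C59 replicate 1 or C59 replicate 2 of 1 h. The cause was not tested for any of these.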

How the results depend on the processing

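Over the settings other than leaving out a library, counts of genes that passed stayed within 1.5 times in 66 of 74 cases. At 6 h the count was 1 with all 30 libraries in one fit (3 with 6 libraries). At 18 h it was 3 with the replicate number as a block, with all genes of the table and with limma, where log2(FPKM + 1) or log2(FPKM + 0.1) was the value tested, and 8 with all 30 libraries (5 as reported). The interaction from 1 to 24 h gave 2 with DESeq2 and without a filter (1 as reported). Same-numbered libraries did not deviate together, with correlations from -0.13 to 0.10 over 15 pairs, so the numbers do not pair the samples. With the replicate block 9 genes passed at 12 h, 2 at 6 h and 2 at 24 h.

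Leaving out 1 library, the counts ran from 1 to 2 at 6 h (1 without DMSO replicate 1, C59 replicate 1 or C59 replicate 3), 4 to 9 at 12 h (4 without DMSO replicate 1), 0 to 6 at 18 h (0 without DMSO replicate 3, 2 without DMSO replicate 1 or 2, 3 without C59 replicate 1 or 2) and 2 to 3 at 24 h. For interactions they ran from 2 (without DMSO replicate 1 of 12 h) to 7 (without C59 replicate 1 of 12 h) from 6 to 12 h, from 0 to 1 from 12 to 18 h and from 1 to 2 from 18 to 24 h (the higher value in both without C59 replicate 3 of 18 h), and from 0 to 2 from 1 to 24 h (0 without DMSO replicate 1, C59 replicate 1 or C59 replicate 2 of 1 h, and 2 without DMSO replicate 3 of 1 h or C59 replicate 2 of 24 h). The cause was not tested.

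Differences that turned sign did not pass in either form. *Krt14* at 1 h was -0.0206 and -0.0253 with limma at the larger and the smaller pseudocount, *Epcam* at 6 h was 0.011 with upper-quartile factors and *Krt18* at 6 h was -0.0009 with all 30 libraries. Leaving out 1 library, log2 differences at 1 h ranged from -0.018 to 0.15 for *Krt5*, -0.0277 to 0.18 for *Krt14*, -0.13 to 0.17 for *Krt15*, -0.0358 to 0.12 for *Epcam*, -0.08 to 0.0129 for *Esrp1* and -0.10 to 0.0495 for *Grhl3*. At 6 h they ranged from -0.18 to 0.0255 for *Krt15*, -0.0341 to 0.0418 for *Krt18*, -0.10 to 0.12 for *Epcam*, -0.0031 to 0.12 for *Grhl2* and -0.13 to 0.0073 for *Grhl3*, at 18 h from -0.12 to 0.17 for *Krt14* and at 24 h from -0.0320 to 0.06 for *Krt18*. The lowest count of any of the 10 genes was 110, and depth limits the precision of such values.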
